A study of Mus musculus with 16 samples.

Results

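Cxcl12 and 5 further genes of the homing chemokine system were followed in bulk RNA-seq of mouse knee joint cells: the ligands Cxcl12, Cxcl13 and Cxcl14, the signalling receptors Cxcr4 and Ccr7, and the atypical receptor Ackr3. These 6 genes were chosen by name, with no threshold on their values but with earlier results of these data known, and are 6 of the 13733 genes in the table. The study asked how the injured knee joint, and its myeloid cells in particular, responded in the presence and absence of Trem2, a surface receptor of myeloid cells. The 16 libraries came from 16 samples in 4 groups of 4.

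The WT groups were C57BL/6 wildtype mice and the Trem2-/- groups were Trem2 knockout mice on the C57BL/6 background, male in both cases and purchased from the same supplier. D0 joints were uninjured. D7 joints were taken 7 days after rupture of the anterior cruciate ligament by a single compressive load on the tibia. Mice were 10 weeks old at injury by the treatment label, whereas the age label reads 16 weeks and the extraction label describes homogenised whole joints of control and type 1 diabetic mice and another library kit than the study's methods. The grouping rests on genotype and injury state, and no label on a sample itself names diabetes. According to the study's methods the cells were released from the joint with collagenase, and red blood cells were lysed. Whether leukocytes were enriched for these libraries is not given in the sources used here. The knockout is carried by every cell of the animal, so no cell type is singled out by it. Nothing in the labels ties the 4 samples of a group to litters or batches, and p-values measure the spread between these samples.

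Homeostatic chemokines are small secreted proteins that are made without inflammation and that place leukocytes within tissues. CXCL12, made by stromal and endothelial cells, holds leukocytes and their precursors in bone marrow through its receptor CXCR4, while ACKR3 also binds CXCL12 but takes it up without classical G protein signalling and so clears it. CXCL13 draws B cells into follicles, CCR7 guides naive T cells, B cells and mature dendritic cells to lymph nodes, and CXCL14 is a highly conserved chemokine of epithelia and fibroblasts.

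The promoters of the CXCL12 receptors and of their ligand are shown because the transcripts of the receptors moved in opposite directions after injury in Trem2-/- joints. In WT joints the difference of Ackr3 did not pass the test. The transcript of the ligand was not shown to move in either genotype. Each line gives the 250 bases that end just before the RefSeq transcription start (GRCm38.p6), read 5′ to 3′ on the strand of the gene. Capitals mark matches on either strand to short motifs found near many promoters. The TATA box was searched for as TATAAA, the box called CCAAT by the letters of its name, and the GC box, bound by Sp1, as GGGCGG. The core of the hypoxia response element was searched for as ACGTG and, in its other form, as GCGTG, and the AP-1 site as TGACTCA.
Cxcr4 (chr1:128592300-128592549, minus strand): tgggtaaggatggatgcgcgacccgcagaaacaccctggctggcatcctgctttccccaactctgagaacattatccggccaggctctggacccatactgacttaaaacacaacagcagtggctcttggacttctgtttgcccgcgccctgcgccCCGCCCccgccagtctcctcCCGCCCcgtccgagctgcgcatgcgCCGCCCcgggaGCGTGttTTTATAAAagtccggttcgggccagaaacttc
Ackr3 (chr1:90203730-90203979, plus strand): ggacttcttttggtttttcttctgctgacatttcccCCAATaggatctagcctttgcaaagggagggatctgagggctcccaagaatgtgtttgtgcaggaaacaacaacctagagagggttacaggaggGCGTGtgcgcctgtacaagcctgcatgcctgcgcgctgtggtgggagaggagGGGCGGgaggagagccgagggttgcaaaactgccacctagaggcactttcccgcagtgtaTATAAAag
Cxcl12 (chr6:117168285-117168534, plus strand): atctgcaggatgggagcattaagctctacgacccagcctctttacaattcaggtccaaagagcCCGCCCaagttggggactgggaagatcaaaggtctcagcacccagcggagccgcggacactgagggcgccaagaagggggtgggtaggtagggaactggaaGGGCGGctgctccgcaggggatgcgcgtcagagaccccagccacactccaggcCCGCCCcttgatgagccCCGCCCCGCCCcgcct
The Cxcr4 window held 3 GC boxes, 1 GCGTG and 2 TATAAA matches, which overlap each other on opposite strands. The Ackr3 window held 1 TATA box, 1 CCAAT box, 1 GC box and 1 GCGTG, and the Cxcl12 window held 5 GC boxes, 2 of them overlapping. Among 32851 mouse promoter windows of this length, the TATA box was present in 12.4%, the CCAAT box in 33.8%, the GC box in 32.7%, GCGTG in 28.2%, ACGTG in 16.6% and the AP-1 site in 4.46%. The GC content was 61.2% for Cxcr4, 54% for Ackr3 and 64.4% for Cxcl12, against a median of 52.4%, and the windows held 19, 7 and 14 CpG dinucleotides against a median of 6. These matches describe the letters only.

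Depth and the identity of the samples were examined first. Between 11567073 and 32867818 reads per library fell on the listed genes, and values are given as CPM, reads scaled to one common library size, so that 3 reads correspond to 0.101 to 0.250 CPM, a limit that covers counting error only. Trem2, the targeted gene, was 10.7 to 22.5 CPM in WT D7 and 3.42 to 4.84 CPM in Trem2-/- D7, and 2.51 to 5.61 against 0.948 to 2.68 CPM at D0, where the groups overlapped. Reads on the gene thus remained in the Trem2-/- libraries. Ptprc, which encodes the leukocyte surface protein CD45, was 140 CPM or higher in every library, and collagen and cartilage genes were detected beside it, so the libraries held RNA of both leukocytes and stromal cells. In bulk samples such as these, fewer cells of a type and less RNA per cell cannot be told apart.

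To ask how the homing genes responded to injury, D7 was compared with D0 in each genotype. In WT joints, Cxcr4 and Ccr7 fell, and in Trem2-/- joints Cxcr4, Ccr7 and Cxcl13 fell while Ackr3 rose (limma, Benjamini-Hochberg adjusted p under 0.05). Cxcl12 and Cxcl14 passed the test in neither genotype. Thus 2 of the 6 genes changed in WT, against 28.5% of the 13173 genes tested, and 4 of the 6 changed in Trem2-/-, against 53.2% of the genes tested. By direction, 2 of the 6 genes fell in WT, against 12.6% of all genes. In Trem2-/-, 3 of the 6 fell and 1 rose, against 27.2% and 26% of all genes. Cxcl13 passed the filter of at least 1 CPM in at least 4 libraries only through D0 libraries, where it was high, so its call is in part fixed by the filter, and without it 3 of 5 genes changed in Trem2-/-, 2 lower and 1 higher. By the rule of the study's methods, an unadjusted p under 0.05 with a minimum fold change, 4 of the 6 genes passed in each genotype, against 37.4% and 54.5% of all genes. The values of all 6 genes in D0 and D7 overlapped in WT, where 22.2% of genes did not overlap, and those of 3 genes did not overlap in Trem2-/-, where 52.4% of genes did not. All 6 genes passed the filter on low values. The WT calls were lost when single libraries were left out, as given for each gene.

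**Figure D1:**
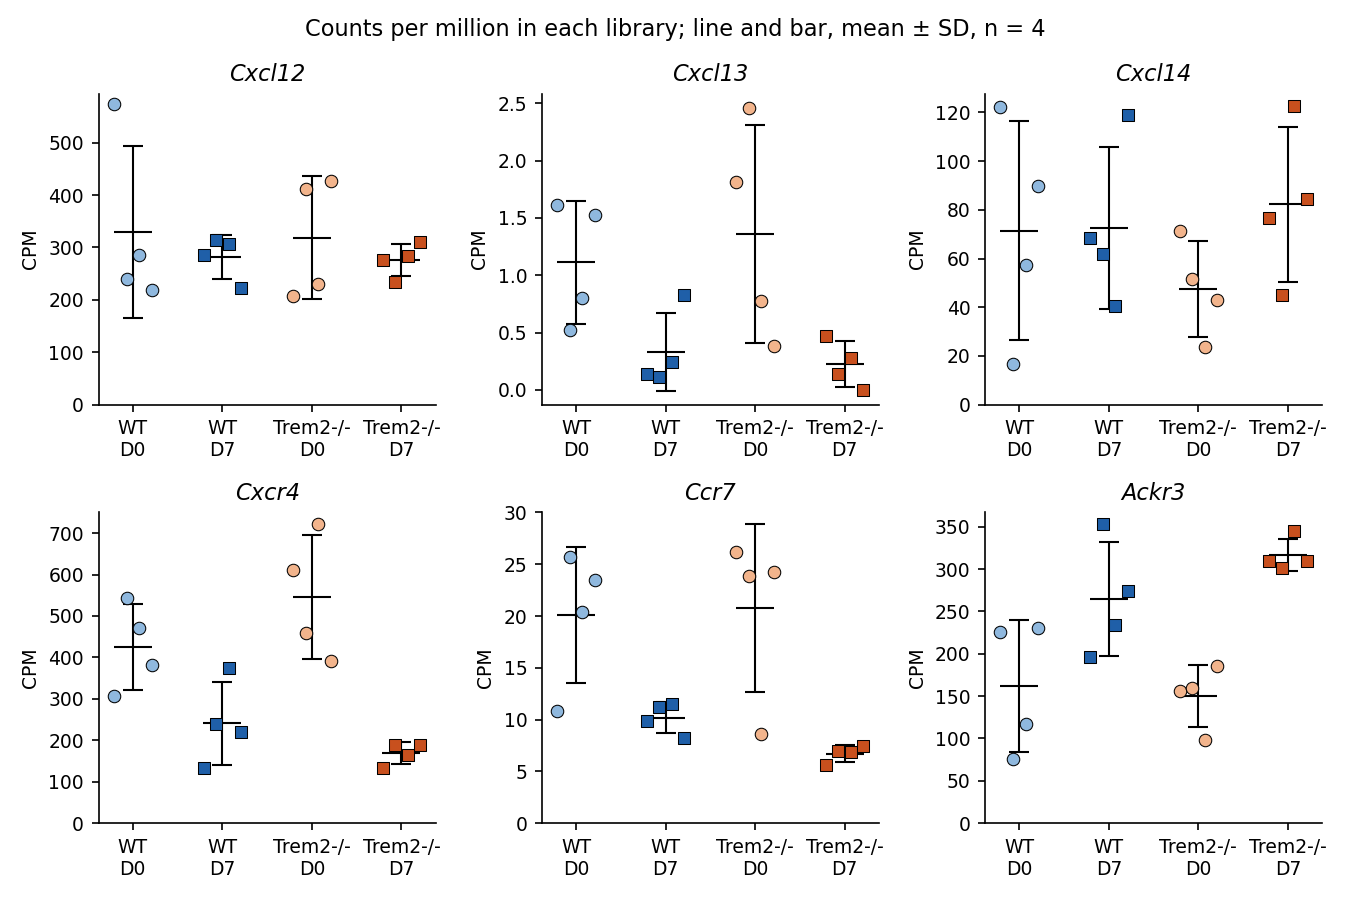
Normalised read counts (CPM, vertical axes starting at or just under 0) of the 6 genes in the 16 libraries, 1 point per library, with lines and bars for mean ± SD (n = 4 per group). Cxcr4, Ccr7 and Ackr3 of the Trem2-/- groups separate fully between D0 and D7, whereas Cxcl12 and Cxcl14 overlap in all groups.

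Cxcl12 (chromosome 6, 117168535 to 117181367, GRCm38) showed no detectable change in its mean after injury. It was 573, 239, 287 and 220 CPM in WT D0 replicates 1 to 4 and 285, 315, 307 and 223 CPM in WT D7. In Trem2-/- mice it was 207, 412, 230 and 427 CPM at D0 and 276, 235, 283 and 310 CPM at D7. The D0 libraries spread widely, with WT replicate 1 and Trem2-/- replicates 2 and 4 at the top, and the D7 libraries lay inside the D0 range in both genotypes. The group means, from high to low, were 330 ± 165 (SD, n = 4) CPM in WT D0, 319 ± 116 in Trem2-/- D0, 282 ± 41.9 in WT D7 and 276 ± 31.0 in Trem2-/- D7, and neighbours in this order differed by less than their spread. The fitted D7 minus D0 difference on the log2(CPM + 1) scale was -0.12 (SE 0.28, 95% confidence interval -0.72 to 0.48, limma adjusted p = 0.768) in WT and -0.14 (SE 0.28, -0.74 to 0.46, adjusted p = 0.695) in Trem2-/-. A change of the mean within these intervals is not excluded by these data, with 4 libraries per group.

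The spread of Cxcl12 ran alongside that of endothelial, pericyte and smooth muscle, and adipocyte genes. Endothelial markers such as Pecam1, Cdh5 and Kdr were summed over 7 genes. Of these, 0 changed in either genotype, against 28.5% of all genes in WT and 53.2% in Trem2-/-. The sum reached 3470 CPM in WT D0 replicate 1, the library with the most Cxcl12, against 1286 to 1948 CPM in the other WT D0 libraries. In Trem2-/- D0 the sum was 2528 and 2955 CPM in replicates 2 and 4, and 1419 and 1654 CPM in replicates 1 and 3, which had less Cxcl12. When the mean log2 level of the endothelial genes was subtracted in each library, the SD of Cxcl12 on the log2 scale went from 0.63 to 0.15 in WT D0 and from 0.55 to 0.07 in Trem2-/- D0. At D7 it went from 0.23 to 0.19 in WT and from 0.17 to 0.27 in Trem2-/-. The summed pericyte and smooth muscle genes were also highest in the D0 libraries with the most Cxcl12, at 2001 CPM in WT replicate 1 against 1069 to 1371 CPM, and at 2609 and 2487 CPM in Trem2-/- replicates 2 and 4 against 1003 and 897 CPM. The summed adipocyte genes did the same, at 1303 against 451 to 913 CPM in WT and at 1244 and 1285 against 569 and 695 CPM in Trem2-/-. Subtracting the pericyte and smooth muscle genes left an SD of 0.40 in WT D0 and 0.19 in Trem2-/- D0, and subtracting the adipocyte genes left 0.24 and 0.21, so the pattern was not particular to the endothelial list. Relative to the endothelial genes, Cxcl12 differed between D7 and D0 by -0.18 in WT (exact permutation p = 0.229) and by -0.25 in Trem2-/- (exact permutation p = 0.114). This comparison was chosen after the values were seen, and the part of RNA from any of these cell types in the spread was not tested.

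Cxcl13 (chromosome 5, 95956951 to 95961068) was close to the limit of detection. It was 1.61, 0.526, 0.797 and 1.53 CPM in WT D0 and 0.139, 0.113, 0.241 and 0.832 CPM in WT D7. In Trem2-/- mice it was 1.81, 2.46, 0.775 and 0.386 CPM at D0 and 0.470, 0.138, 0.280 and 0 CPM at D7, and no library of the 16 held more than 39 reads. Most D7 libraries were below most D0 libraries, but the groups overlapped in both genotypes. The means were 1.36 ± 0.951 (SD, n = 4) CPM in Trem2-/- D0, 1.12 ± 0.537 in WT D0, 0.331 ± 0.338 in WT D7 and 0.222 ± 0.201 in Trem2-/- D7. The D7 minus D0 difference was -0.66 (SE 0.27, limma adjusted p = 0.0777, exact permutation p = 0.0857) in WT and -0.87 (SE 0.27, limma adjusted p = 0.0141, exact permutation p = 0.0571) in Trem2-/-. Without Trem2-/- D0 replicate 2, the library with the highest value, the Trem2-/- difference was -0.66 and no longer passed (limma adjusted p = 0.0517). Because the gene passed the filter only through D0 libraries, its lower D7 values are in part fixed by that choice.

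Cxcl14 (chromosome 13, 56288643 to 56296551) varied more between replicates than between groups. It was 122, 16.9, 57.3 and 89.7 CPM in WT D0 and 68.5, 62.1, 40.7 and 119 CPM in WT D7. In Trem2-/- mice it was 71.4, 51.4, 23.8 and 42.9 CPM at D0 and 76.8, 45.2, 123 and 84.3 CPM at D7. Within WT D0 the highest library was 7.25 times the lowest, and all groups overlapped. The means were 82.2 ± 31.8 (SD, n = 4) CPM in Trem2-/- D7, 72.6 ± 33.2 in WT D7, 71.5 ± 45.1 in WT D0 and 47.4 ± 19.7 in Trem2-/- D0, and no neighbours in this order differed beyond their spread. The fitted difference was 0.23 (SE 0.51, 95% confidence interval -0.86 to 1.32, limma adjusted p = 0.761) in WT and 0.80 (SE 0.51, -0.29 to 1.89, adjusted p = 0.199) in Trem2-/-, so the intervals include changes of the size found for Ackr3.

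Cxcr4 (chromosome 1, 128588199 to 128592293), the signalling receptor for CXCL12, had the highest level per length of the 6 genes over the 16 libraries (191 CPM per kilobase of exon) and fell after injury. It was 307, 543, 470 and 381 CPM in WT D0 and 133, 238, 375 and 219 CPM in WT D7. In Trem2-/- mice it was 611, 459, 721 and 391 CPM at D0 and 132, 188, 165 and 188 CPM at D7. In WT, D7 replicate 3 lay above D0 replicate 1, while every Trem2-/- D7 library lay below every Trem2-/- D0 library. The order of the means was 546 ± 149 (SD, n = 4) CPM in Trem2-/- D0, 425 ± 103 in WT D0, 241 ± 100 in WT D7 and 168 ± 26.5 in Trem2-/- D7. Cxcr4 fell by 0.88 on the log2 scale in WT (SE 0.27, limma adjusted p = 0.0274, exact permutation p = 0.0571), a 1.84-fold difference. It fell by 1.66 in Trem2-/- (SE 0.27, limma adjusted p = 0.000178), a 3.17-fold difference with an exact permutation p of 0.0286, the smallest that 70 assignments of 8 libraries allow. The WT call was lost without any 1 of WT D0 replicates 2 and 3 or WT D7 replicates 1 and 4 (difference -0.86 to -0.62, limma adjusted p = 0.0599 to 0.0875), and when only the groups compared entered the fit (limma adjusted p = 0.0782). The Trem2-/- call remained without any 1 library, with differences from -1.81 to -1.52.

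Ccr7 (chromosome 11, 99144196 to 99155077), the receptor for CCL19 and CCL21, was expressed at a low level and also fell. It was 10.9, 25.7, 20.4 and 23.5 CPM in WT D0 and 9.82, 11.2, 11.5 and 8.20 CPM in WT D7. In Trem2-/- mice it was 26.2, 23.9, 8.65 and 24.3 CPM at D0 and 5.58, 6.96, 6.89 and 7.42 CPM at D7. In each genotype 3 of the 4 D0 libraries were well above all D7 libraries, and the fourth, WT replicate 1 or Trem2-/- replicate 3, was near the D7 level. The means were 20.7 ± 8.13 (SD, n = 4) CPM in Trem2-/- D0, 20.1 ± 6.53 in WT D0, 10.2 ± 1.52 in WT D7 and 6.71 ± 0.793 in Trem2-/- D7, and the D0 groups differed by less than their spread. Ccr7 fell by 0.86 in WT (SE 0.30, limma adjusted p = 0.0418, exact permutation p = 0.0857) and by 1.39 in Trem2-/- (SE 0.30, limma adjusted p = 0.00126, exact permutation p = 0.0286). The WT call was lost without any 1 of WT D0 replicates 2, 3 and 4 or WT D7 replicates 1, 2 and 4 (limma adjusted p = 0.0639 to 0.120), and when only the groups compared entered the fit (0.0511). The Trem2-/- call remained without any 1 library.

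Leukocyte genes fell with the receptors. The summed level of 6 pan-leukocyte genes (Ptprc, Coro1a, Laptm5, Cd53, Arhgdib and Lcp1) was 2869 to 5735 CPM in WT D0 and 1641 to 3530 in WT D7, and 3575 to 6356 in Trem2-/- D0 and 1282 to 1620 in Trem2-/- D7. Of the 6 genes, 5 fell in WT (median log2 difference -0.79) and 6 fell in Trem2-/- (median -1.82), against a median of -0.04 over all genes in each genotype. Among all genes tested, 12.6% fell in WT and 27.2% in Trem2-/-. The WT count was 2 of 6 without any 1 of WT D0 replicates 2 and 3 or WT D7 replicates 1, 2 and 4. Ptprc fell by 0.75 in WT and by 1.84 in Trem2-/- (limma adjusted p = 0.034 and 4.13e-05). Cxcr4 was 0.840 ± 0.0809 times the CPM of Ptprc in WT D0 and 0.782 ± 0.190 times in WT D7, and 0.868 ± 0.145 times in Trem2-/- D0 and 0.980 ± 0.140 times in Trem2-/- D7 (SD, n = 4), ratios that are not corrected for length. After the mean log2 level of the 6 genes was subtracted in each library, Cxcr4 differed between D7 and D0 by 0.03 in WT (exact permutation p = 0.771) and by 0.19 in Trem2-/- (exact permutation p = 0.2). The same step left a difference of 0.05 for Ccr7 in WT (exact permutation p = 0.943) and of 0.47 in Trem2-/- (exact permutation p = 0.457). These relative values were added after the data were seen, and the part of leukocyte RNA in the lower receptor levels was not tested beyond them.

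The lists of single leukocyte types moved in different ways. Over all genes tested, 28.5% changed and 12.6% fell in WT, and 53.2% changed, 26% rose and 27.2% fell in Trem2-/-. All 8 neutrophil genes, all 5 B cell genes and all 6 pro-B and pre-B genes fell in both genotypes, with medians of -1.53, -1.35 and -1.49 in WT and -2.30, -2.08 and -1.62 in Trem2-/-. Outside the leukocytes, all 5 erythroid (red blood cell) genes also fell in both genotypes, with medians of -1.46 and -1.68. The WT erythroid count was 1 to 5 when 1 library was left out. The WT neutrophil count was 1 of 8 without WT D0 replicate 3 or WT D7 replicate 1 and 4 of 8 without WT D0 replicate 2 or WT D7 replicate 4. Among 7 T cell genes, 4 fell and 1 rose in WT, and 5 fell and 1 rose in Trem2-/-, the riser being Thy1, which fibroblasts also express. Cd3e and Cd8a reached 1 CPM in no D7 library and passed the filter only through D0, so their lower D7 values are in part fixed by it. Among 7 mature dendritic cell genes, Ccl22 and Fscn1 rose in both genotypes while 1 fell in WT and 3 fell in Trem2-/-. The WT count of 3 changed dendritic cell genes was 1 without WT D0 replicate 2 or WT D0 replicate 3. Of 8 monocyte and macrophage genes, 5 rose and 1 fell in WT, and 5 rose and 3 fell in Trem2-/-. In Trem2-/- D0 replicate 3, where Ccr7 was lowest of its group, the summed B cell genes (124 CPM against 159 to 207) and T cell genes without Thy1 (14.3 CPM against 19.4 to 26.8) were also lowest, and the neutrophil genes were highest (43662 CPM against 14452 to 39247). In WT D0 replicate 1, the library with the least Ccr7 of its group, the B cell genes (106 CPM against 210 to 287) and T cell genes without Thy1 (12.0 CPM against 17.0 to 28.0) were lowest as well. The neutrophil genes were there the lowest of the group (14190 CPM against 15571 to 32632), unlike in Trem2-/- D0 replicate 3.

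Ackr3 (chromosome 1, 90203980 to 90216751), the scavenger of CXCL12, moved the other way. It was 225, 75.3, 117 and 230 CPM in WT D0 and 196, 353, 234 and 274 CPM in WT D7. In Trem2-/- mice it was 155, 160, 98.4 and 186 CPM at D0 and 310, 302, 344 and 310 CPM at D7. The Trem2-/- D7 libraries were close together and all above Trem2-/- D0, whereas in WT D0 replicates 1 and 4 lay above WT D7 replicate 1. The means were 316 ± 19.1 (SD, n = 4) CPM in Trem2-/- D7, 264 ± 67.4 in WT D7, 162 ± 77.9 in WT D0 and 150 ± 36.8 in Trem2-/- D0, and neither the D7 groups nor the D0 groups differed beyond their spread. Ackr3 rose by 1.11 on the log2 scale in Trem2-/- (SE 0.30, limma adjusted p = 0.00642, exact permutation p = 0.0286), a 2.16-fold difference. In WT the difference was 0.82 (SE 0.30, 95% confidence interval 0.17 to 1.46), which did not pass (limma adjusted p = 0.0545, exact permutation p = 0.114). Without WT D0 replicate 1 or replicate 4 the WT difference was 1.02 or 1.03 and passed (limma adjusted p = 0.0186 and 0.0196).

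**Figure D2:**
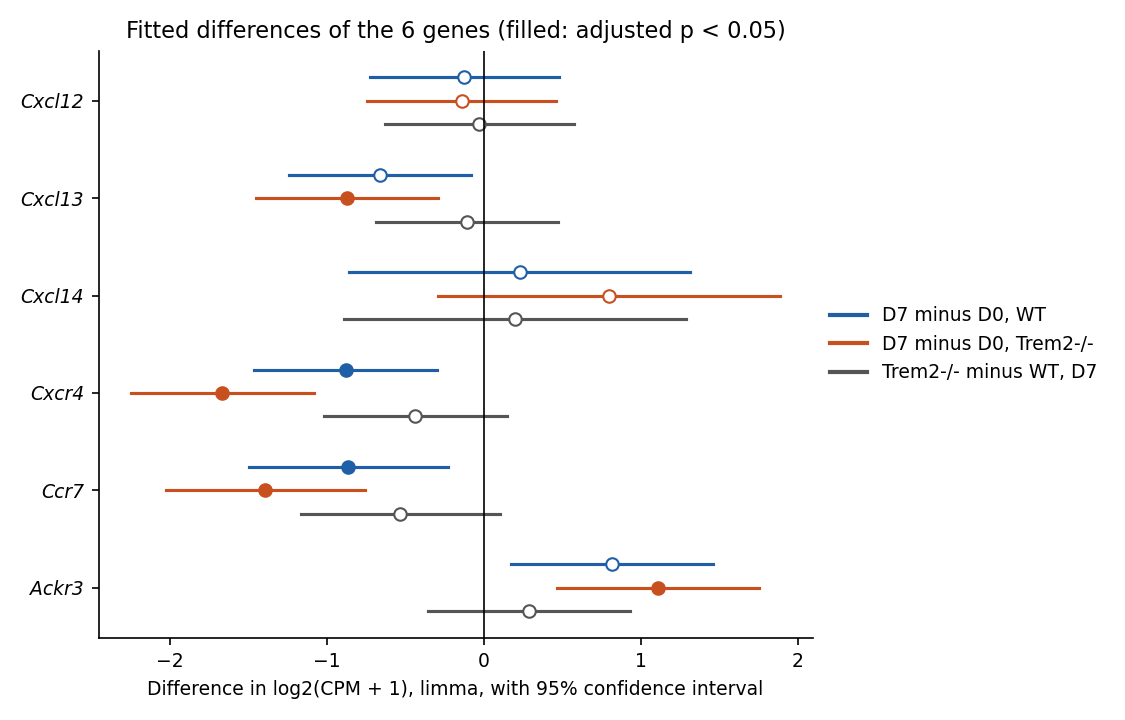
Fitted differences of the 6 genes on the log2(CPM + 1) scale (horizontal axis) with 95% confidence intervals, for D7 minus D0 in WT (blue) and Trem2-/- (orange) and for Trem2-/- minus WT at D7 (grey); filled points passed at an adjusted p under 0.05. Cxcr4 and Ccr7 lie left of 0 and Ackr3 right of 0 in both genotypes, and all 6 grey intervals cross 0.

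Fibroblast genes were also higher after injury. The summed level of 9 fibroblast genes, among them the collagen genes Col1a1, Col1a2 and Col3a1, was 11608 to 55850 CPM in WT D0, 85297 to 123344 in WT D7, 8550 to 18266 in Trem2-/- D0 and 105892 to 152995 in Trem2-/- D7. Of the 9 genes, 6 rose in WT (median 1.69), and in Trem2-/- 7 rose and Pi16 fell (median 2.33). Among all genes tested, 28.5% changed in WT, and 26% rose and 27.2% fell in Trem2-/-. The WT D0 libraries with the most Ackr3, replicates 1 and 4, also had the highest fibroblast sums of their group (26954 and 55850 CPM, against 11608 and 12533). Relative to the mean log2 level of the fibroblast genes, Ackr3 differed between D7 and D0 by -0.71 in WT (exact permutation p = 0.0571) and by -1.22 in Trem2-/- without overlap (exact permutation p = 0.0286). Relative to the endothelial genes it differed by 0.76 in WT (exact permutation p = 0.0857) and by 1.00 in Trem2-/- (exact permutation p = 0.0571). Against the same fibroblast genes, Cxcl12 differed by -1.65 in WT (exact permutation p = 0.0857) and -2.47 in Trem2-/- (exact permutation p = 0.0286), and Cxcl14 by -1.30 (exact permutation p = 0.0571) and -1.53 (exact permutation p = 0.0286). The direction found for Ackr3 in CPM was thus the reverse of that found relative to the fibroblast genes, and the part of fibroblast RNA in it was not tested further. Among the other stromal lists, all 6 chondrocyte genes rose in both genotypes, 3 of 5 osteoblast genes rose in WT and 4 in Trem2-/-, and 2 of 6 pericyte and smooth muscle genes rose in WT, against 3 that rose and 1 that fell in Trem2-/-. The WT pericyte and smooth muscle count was 4 without WT D0 replicate 1.

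**Figure D3:**
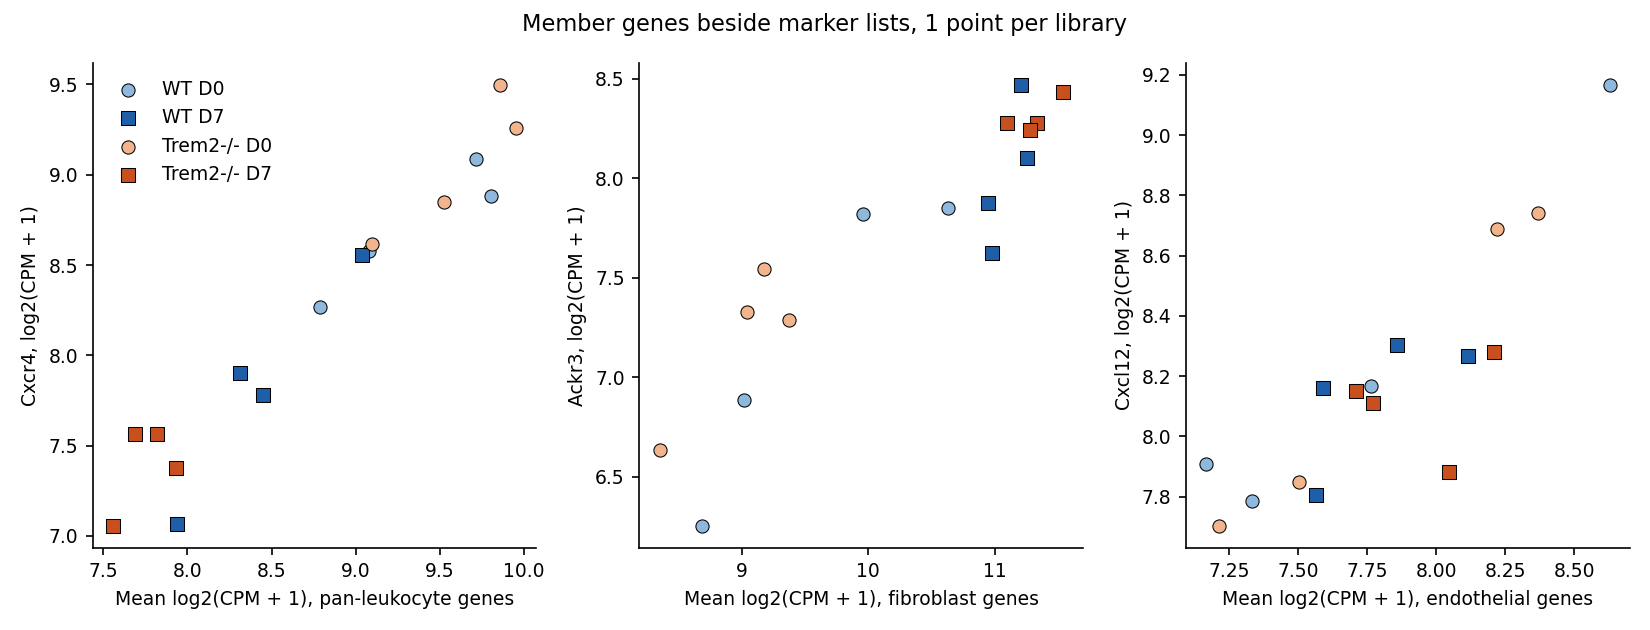
Log2(CPM + 1) of Cxcr4, Ackr3 and Cxcl12 (vertical axes) against the mean log2(CPM + 1) of 6 pan-leukocyte, 9 fibroblast and 7 endothelial genes (horizontal axes), 1 point per library with groups by colour. The groups form 1 sequence for Cxcr4 from Trem2-/- D7 to Trem2-/- D0, the D7 libraries of both genotypes sit at the right for Ackr3, and for Cxcl12 the highest points are the 3 D0 libraries with the most endothelial RNA.

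The receptors for CXCL12 were then compared per length. Per kilobase of annotated exon, the mean level in WT D0 was 235 CPM for Cxcr4, 48.4 for Ackr3, 40.3 for Cxcl12, 39.1 for Cxcl14, 10.2 for Ccr7 and 0.970 for Cxcl13. In Trem2-/- D7 the corresponding levels were 93.1, 94.5, 33.7, 45.0, 3.39 and 0.193 CPM per kilobase. The length counts all annotated exons, 8176 bases for Cxcl12 and 1808 for Cxcr4, so a gene whose shorter transcripts predominate is understated. The ratio of Ackr3 to Cxcr4 per kilobase was 0.0749 to 0.396 in WT D0, 0.337 to 0.801 in WT D7, 0.0737 to 0.256 in Trem2-/- D0 and 0.865 to 1.27 in Trem2-/- D7. The D0 and D7 ratios overlapped in WT and not in Trem2-/-.

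To ask whether loss of Trem2 altered these genes, Trem2-/- was compared with WT within each day. At D7, 0 of the 6 genes changed, against 0% of all genes (limma), and 0 had an unadjusted p under 0.05, against 958 of the 13173 genes (7.27%). Trem2, the targeted gene, did not pass this test either (-1.72, limma adjusted p = 0.0503). A gene that did not pass is thus not shown to be equal in both genotypes. Ccr7 was the only one of the 6 whose groups did not overlap, at 5.58 to 7.42 CPM in Trem2-/- and 8.20 to 11.5 CPM in WT, and 8.33% of all genes did not overlap in this comparison. Its difference, Trem2-/- minus WT, was -0.53 (SE 0.30, 95% confidence interval -1.17 to 0.10, limma adjusted p = 0.753, exact permutation p = 0.0286). The difference was -0.44 for Cxcr4 (-1.02 to 0.15), 0.29 for Ackr3 (-0.35 to 0.93), -0.03 for Cxcl12 (-0.63 to 0.57), -0.11 for Cxcl13 (-0.69 to 0.48) and 0.20 for Cxcl14 (-0.89 to 1.29), with limma adjusted p from 0.783 to 0.991. The pan-leukocyte sum was 1282 to 1620 CPM in Trem2-/- D7 and 1641 to 3530 CPM in WT D7, so the groups were apart by little. Of its 6 genes, 0 changed between genotypes at D7 (limma). Relative to those genes Ccr7 differed by 0.15 (exact permutation p = 0.486) and Cxcr4 by 0.25 (exact permutation p = 0.171).

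At D0, 0 of the 6 genes changed between genotypes, against 0% of all genes (limma), and 0 had an unadjusted p under 0.05, against 385 genes (2.92%). Trem2 itself did not pass here (-0.98, limma adjusted p = 0.9996). All 6 genes overlapped, where 0.979% of all genes did not. The differences of the 6 genes ran from -0.37 for Cxcl14 to 0.35 for Cxcr4. Ackr3 itself differed by -0.0039 (limma adjusted p = 0.9996). The mean of the fibroblast genes differed by -0.59, and relative to it Ackr3 differed by 0.58 without overlap (exact permutation p = 0.0286). That relative value came from the fibroblast mean and not from a higher Ackr3 level. Relative to the endothelial genes Ackr3 differed by -0.11 with overlap (exact permutation p = 0.771). The response to injury did not pass a test of difference between genotypes for any of the 6 genes (limma interaction, 0% of all genes called), and 0 of them had an unadjusted p under 0.05, against 1075 genes (8.16%). The interaction was -0.79 for Cxcr4 (SE 0.39, 95% confidence interval -1.61 to 0.04, limma adjusted p = 0.624), -0.53 for Ccr7 (SE 0.42, adjusted p = 0.771) and 0.29 for Ackr3 (SE 0.43, adjusted p = 0.879). That Ackr3 and Cxcl13 passed after injury in Trem2-/- and not in WT is therefore not shown to be a difference between the genotypes. Over all genes, edgeR on the recovered reads called 0 genes in each of these 3 comparisons, and DESeq2 called 45 for D7, 1 for D0 and 25 for the difference in response. With voom and limma, 1 gene was called for D7. By the rule of the study's methods, 753 genes passed for D7, 283 for D0 and 1026 for the difference in response, and 0 of the 6 genes did.

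Genes that act with CXCR4, listed by name, were examined next. Of 14 genes of CXCR4 signalling and CXCL12 control, 6 fell and 0 rose in WT (median -0.36), and 9 fell and 2 rose in Trem2-/- (median -0.54), where 12.6% of all genes fell in WT and 27.2% fell and 26% rose in Trem2-/-. The WT count was 2 without any 1 of WT D0 replicates 2 and 3 or WT D7 replicates 1 and 4. Arrb2, encoding an arrestin that uncouples and internalises the receptor, went from 134 ± 64.8 to 61.5 ± 7.83 CPM in WT (difference -0.98, limma adjusted p = 0.0359) and from 164 ± 71.1 to 37.6 ± 6.10 CPM in Trem2-/- (adjusted p = 0.000163; SD, n = 4). Adrbk1, encoding the receptor kinase GRK2, fell by 0.79 in WT and by 1.35 in Trem2-/- (limma adjusted p = 0.0065 and 4.35e-05). Dpp4, the surface peptidase that inactivates CXCL12 by trimming its end, fell by 0.82 and by 1.22 (limma adjusted p = 0.00688 and 0.000119). The related kinase gene Grk6 fell by 0.58 in WT and by 0.83 in Trem2-/- (limma adjusted p = 0.0248 and 0.0012). Adrbk2 fell by 0.96 in Trem2-/- and did not pass in WT (-0.44, limma adjusted p = 0.159). The genes that rose in Trem2-/- were Gnai1, encoding an inhibitory G protein subunit, by 0.63, and Foxc1, a transcription factor of Cxcl12-expressing marrow stroma, by 0.94.

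Among the other homeostatic chemokines and their receptors, 7 genes were tested. Ccr9, a receptor for gut and thymus homing, fell from 8.31 ± 2.71 to 3.16 ± 0.918 CPM in WT (-1.14, limma adjusted p = 0.00859) and from 7.19 ± 3.55 to 1.14 ± 0.250 CPM in Trem2-/- (-1.85, adjusted p = 8.66e-05; SD, n = 4). It was the only one of the 7 that changed in WT. In Trem2-/-, Cxcr5, the receptor for CXCL13, fell by 0.80 (limma adjusted p = 0.00379), and Cx3cl1, a membrane-bound chemokine, rose by 0.78 (limma adjusted p = 0.0153). The medians of the 7 genes were -0.07 in each genotype, and 1 and 3 of 7 compare with 28.5% and 53.2% of all genes changed. The genes for the CCR7 ligands were not analysed here.

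Of 5 other atypical chemokine receptor genes, 0 changed in WT by limma, and 1, Ccrl2, had an unadjusted p under 0.05. The WT count was 1 without WT D0 replicate 1 or WT D7 replicate 3, and 28.5% of all genes changed in WT and 53.2% in Trem2-/-. In Trem2-/-, Ackr4, which scavenges the CCR7 ligands, rose from 1.09 ± 0.512 to 5.18 ± 1.43 CPM (1.57, limma adjusted p = 0.000199), and Ccrl2, which binds chemerin, fell from 204 ± 41.0 to 61.8 ± 17.0 CPM (-1.73, limma adjusted p = 0.000316; SD, n = 4). Ackr4 in WT was 3.52 ± 1.40 CPM at D0 and 4.00 ± 1.51 CPM at D7. Its rise in Trem2-/- thus started from a D0 mean below that of WT. This D0 difference was -1.10 (limma unadjusted p = 0.00074) and did not pass (limma adjusted p = 0.9996). The medians were -0.40 in WT and 0.07 in Trem2-/-. Ackr3 and Ackr4 thus moved one way in Trem2-/- and Ccrl2 the other.

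Of 9 genes of lymphoid tissue organisation, 1 rose and 3 fell in WT, and 2 rose and 4 fell in Trem2-/- (medians -0.52 and -0.54), against 28.5% and 53.2% of all genes changed. The WT count of 4 was 2 without WT D0 replicate 2 and 1 without WT D0 replicate 3 or WT D7 replicate 1. Ltb, the lymphotoxin that induces Cxcl13 in lymphoid stroma, fell by 0.95 in WT and by 2.24 in Trem2-/- (limma adjusted p = 0.023 and 3.26e-05), while the gene of its receptor, Ltbr, rose by 0.41 and 0.43 (limma adjusted p = 0.0288 and 0.0119). Fcer2a and Cr2, surface receptors of B cells, fell in both genotypes, by 0.86 and 0.52 in WT and by 1.21 and 1.03 in Trem2-/-. Tnfsf13b, encoding the B cell survival factor BAFF, fell by 1.57 in Trem2-/-, and Tnfsf11, encoding the osteoclast factor RANKL, rose there by 2.75 (limma adjusted p = 0.000346). Of 9 genes of the marrow stroma that makes Cxcl12, 2 rose and 0 fell in WT, and 4 rose and 0 fell in Trem2-/- (medians 0.37 and 0.55). Among all genes tested, 28.5% changed and 12.6% fell in WT, and 53.2% changed, 26% rose and 27.2% fell in Trem2-/-. The WT count was 4 without WT D0 replicate 4 and 1 without WT D0 replicate 3, WT D7 replicate 1 or WT D7 replicate 4. Spp1, encoding osteopontin, rose by 1.21 and 1.36, and Pdgfrb, a receptor of mesenchymal cells, by 0.91 and 1.21. Lepr and Kitl, markers of the same stroma, passed in neither genotype, with differences of -0.69 and -0.16 in WT and -0.32 and 0.08 in Trem2-/-. No list held a gene that changed between genotypes at D7 (limma), where 0% of all genes changed, so this would hold for any list.

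**Figure D4:**
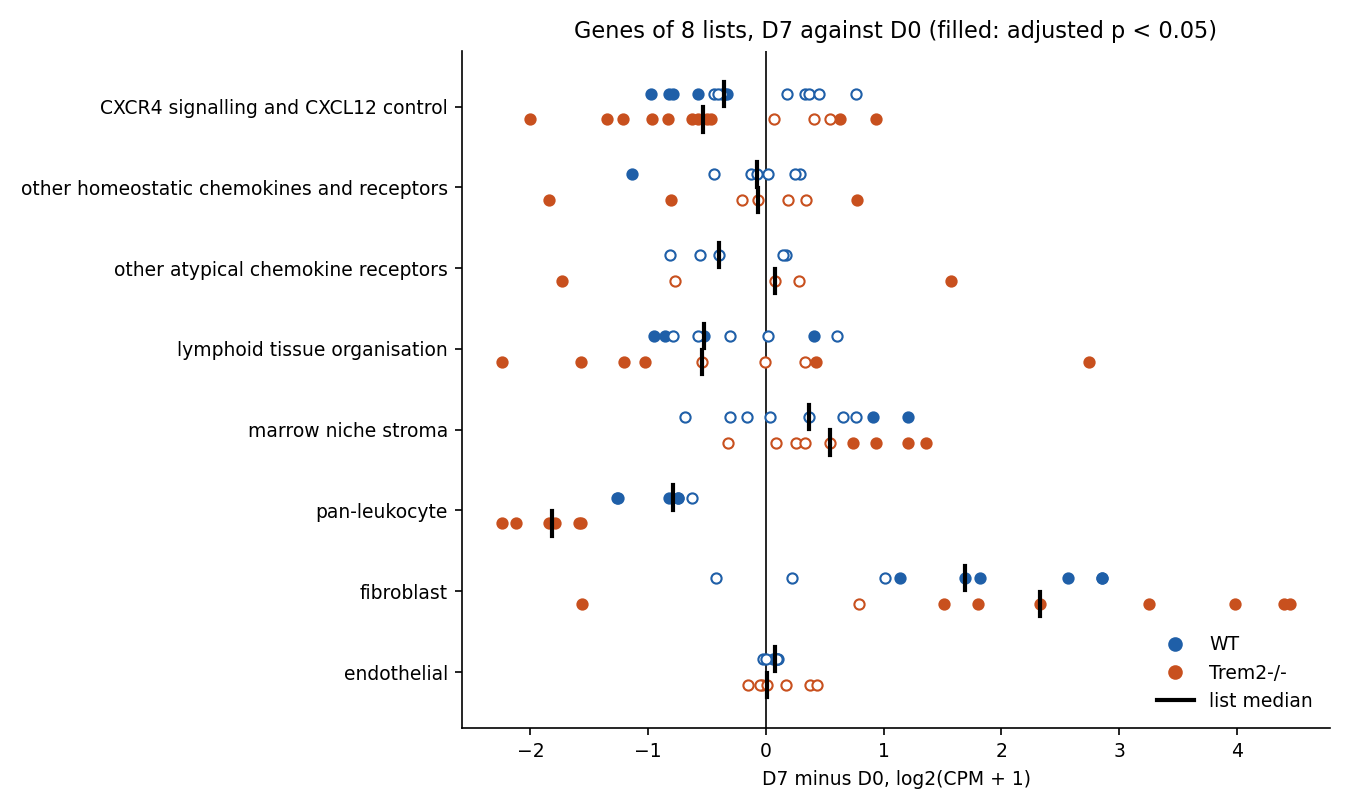
D7 minus D0 differences on the log2(CPM + 1) scale (horizontal axis) of the genes of 8 lists (rows) in WT (blue) and Trem2-/- (orange), with filled points for an adjusted p under 0.05 and black lines for list medians. The 6 pan-leukocyte genes all lie left of 0, most fibroblast genes lie right of 0, the 7 endothelial genes lie near 0, and the chemokine lists spread to both sides.

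The genes whose levels most resembled each homing gene were sought over the 16 libraries among the 10547 tested genes that averaged 5 CPM or more. The libraries share 4 groups, so Pearson's r on the log2 scale contains the group differences, and r of the deviations from the group means is given beside it as a description. Cxcr4 was most like Ebi3, Max and Trem3 (r = 0.99, 0.98 and 0.98, Spearman's rho = 0.98, 0.99 and 0.98, r of deviations = 0.94, 0.94 and 0.93). Ackr3 was most like Hspb8, App and Medag (r = 0.99, 0.98 and 0.97, rho = 0.96, 0.94 and 0.96, r of deviations = 0.98, 0.95 and 0.97). Cxcl12 was most like Wscd1, Cav2 and Hes1 (r = 0.97, 0.95 and 0.94, rho = 0.93, 0.94 and 0.91, r of deviations = 0.98, 0.97 and 0.95), so its likeness held within groups as well. Ccr7 was most like Fcmr, Cd2 and H2-Ob (r = 0.97, 0.95 and 0.95, rho = 0.92, 0.90 and 0.91, r of deviations = 0.90, 0.87 and 0.86). Cxcl14 was most like Fgf18, Cfb and Mmp3 (each r = 0.91, with rho = 0.89, 0.84 and 0.88 and r of deviations = 0.91, 0.93 and 0.90). For Cxcl13, with at most 39 reads per library, the highest r was 0.85 (Zmynd11), followed by Mier3 and Psd (0.83 and 0.82), and r of deviations was 0.64, 0.65 and 0.63.

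Between the homing genes themselves, likeness depended on whether groups were included. Cxcr4 and Ccr7 had r = 0.73 over the 16 libraries but 0.07 for deviations from group means, and Cxcr4 and Ackr3 had -0.79 and -0.40. Cxcl14 and Ackr3 ran together in both forms, with 0.72 and 0.76. Cxcl12 had r between -0.06 and 0.19 with each of the other 5 genes over the 16 libraries, whereas r of deviations ran from -0.44 with Cxcr4 to 0.42 with Ackr3.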

How the data were processed

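According to the study's methods and the submitters' processing notes, the authors aligned stranded bulk RNA-seq reads to mm10 with STAR, counted reads per gene with featureCounts and normalized them with edgeR's TMM method. Versions, the annotation and the strand setting are not given in the sources used here. The deposited signal values are TMM-scaled read counts per library size, called CPM here, for 13733 genes, and 100% of them were whole multiples of the value of 1 read in their library (tolerance 0.05 reads), so read counts could be recovered.

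Values were compared on the log2(CPM + 1) scale, which understates changes of low genes, with limma 3.58.1 (eBayes with trend) in R 4.3.3, two-sided, with the 4 groups in 1 fit over 13173 genes, those reaching 1 CPM in 4 or more of 16 libraries. "Rose", "fell" and "changed" mean a Benjamini-Hochberg adjusted p under 0.05 over all these genes. Single genes were also compared by an exact two-sided permutation test over 70 assignments of 8 libraries. The fit was checked on simulated data.

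The 6 genes and the lists were chosen with earlier results of these data known. From each list up to 4 changed genes with the largest difference were named, or defining markers where a list stands beside a result. The 3 genes with the highest Pearson r to each of the 6 genes were named as well. Gnai1, Foxc1, Cr2, Ltbr, Fcer2a, Lepr, Kitl, Pi16, Ccl22 and Thy1 were named after their values were seen where that rule did not name them. GENCODE M21 (GRCm38) gave positions and exon lengths, and RefSeq gave promoters.

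Alternatives were pseudocounts of 0.1 and 5, no filter, a filter at a mean of 5 CPM, median-of-ratios scaling, quantile normalization, eBayes without trend, a replicate block, only the groups compared, the rule of the study's methods, each library left out, and edgeR 4.0.16 quasi-likelihood, voom and DESeq2 1.42.0 on the recovered reads. Levels relative to marker lists were added after the data were seen.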

Additional observations from a re-analysis of the deposited data

Results flagged for a closer look

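Ccr7 in the Trem2-/- D0 group was singled out because 1 library lay far from the others. Replicate 3 was at 8.65 CPM while the other 3 libraries were between 23.9 and 26.2 CPM, so that the gap to the nearest library was 0.867 of the whole range of the group, above Dixon's 95% critical value for 4 samples. This was the only such library in 28 groups of values (7 genes, the 6 homing genes and Trem2, in 4 groups), and chance alone marks about 1 in 20 groups.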

How the results depend on the processing

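The Trem2-/- comparison of D7 with D0 gave 4 changed genes of 6, and 3 to 4 when 1 library was left out. The WT comparison was less stable: against 2 changed genes, the rule of the study's methods gave 4, quantile normalization 4 and only the groups compared 0, and leaving out 1 library gave 0 to 3, with 0 without WT D0 replicate 2, WT D0 replicate 3, WT D7 replicate 1 or WT D7 replicate 4. The cause was not tested. Ackr3 in WT passed with quantile normalization (adjusted p = 0.0473) and median-of-ratios scaling (0.0487), and Cxcl13 in WT with quantile normalization (0.0437), all by limma. With a mean of at least 5 CPM, Cxcl13 was not tested. No scaling moved the median of all genes by over 0.1. Over all genes, 3752 were called in WT, against 1736 with only the groups compared and 1972 to 4792 without 1 library. The WT T cell count of 5 was 2 without WT D0 replicate 2, WT D0 replicate 3 or WT D7 replicate 4 and 3 without WT D7 replicate 2.

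With the replicate number as a block, 1 gene changed in WT, where Ccr7 did not pass (limma adjusted p = 0.0502), and 4 changed in Trem2-/-. The numbers were not shown to pair the samples. Deviations from the group means correlated at -0.51 to 0.41 over 24 pairs of same-numbered libraries, with 11 of them over 0.1. The median r was 0.070, against -0.010 for libraries with other numbers. Of the 16 libraries, 7 correlated best with their own number. These values cannot exclude pairing.

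Several differences that passed no test changed sign. Ccr7 between genotypes at D0 was 0.0079 with a pseudocount of 5, 0.011 with quantile normalization, 0.042 with edgeR and 0.043 with DESeq2. The Cxcl12 interaction was 0.013 with edgeR and with DESeq2. When 1 library was left out, Cxcl12 ranged from -0.28 to 0.18 for D7 minus D0 in WT, from -0.32 to 0.025 in Trem2-/-, from -0.14 to 0.046 between genotypes at D7, from -0.18 to 0.29 at D0 and from -0.32 to 0.15 for the interaction. Cxcl14 ranged from -0.34 to 0.59 for D7 minus D0 in WT and from -0.041 to 0.47 between genotypes at D7. Cxcl13 ranged from -0.20 to 0.056 between genotypes at D7, from -0.11 to 0.33 at D0 and from -0.43 to 0.0064 for the interaction. Between genotypes at D0, Ccr7 ranged from -0.26 to 0.35 and Ackr3 from -0.32 to 0.21.

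By construction, levels relative to a marker list are another quantity, and by it the sign turned for D7 minus D0 in WT and Trem2-/-: 0.034 and 0.19 for Cxcr4, 0.051 and 0.47 for Ccr7, -0.71 and -1.22 for Ackr3 and -1.30 and -1.53 for Cxcl14. Depth limited Cxcl13, with 0 to 39 reads per library.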
